A study of Mus musculus with 9 samples.

Results

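Lin-/c-Kit+ hematopoietic stem and progenitor cells that carried the Dnmt3a R878H allele and came from metformin-treated mice (RH MET, 2 libraries) were compared with wild-type cells from vehicle-treated mice (WT VEH, 2 libraries), to describe where the repressive histone mark H3K27me3 still separated the mutant cells from untreated wild type after the drug. These 4 libraries were taken by their labels from the 8 libraries of the series that have an interval list, and 1 input library has none here. A region or a protein-coding gene separated the groups where an interval of both libraries of one group overlapped it by at least 1 bp and no interval of the other group did. Of 15699 merged regions called in at least 1 of the 4 libraries, 702 separated the groups, and of 8101 protein-coding genes so called, 218 did.

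The RH MET cells were Dnmt3afl-R878H/+ and the WT VEH cells Dnmt3a+/+, both on a C57BL/6 background and both crossed with the Mx1-cre transgene, whose recombinase is driven by an interferon-inducible promoter. All mice were female, had undergone transplantation and were then kept for 1 month with metformin or with vehicle, and bone marrow cells were enriched with a progenitor isolation kit and a c-Kit kit, fixed without culture and used for chromatin immunoprecipitation sequencing. The remaining groups, metformin-treated wild type (WT MET) and vehicle-treated R878H (RH VEH), had 2 libraries each. They are used here to follow the separating regions, in the merging of intervals into regions and in 1 alternative fit of covered length. RH MET and WT VEH differ in both genotype and treatment, so within these 4 libraries the allele and the drug cannot be told apart. The share of host cells left after transplantation is not given in the sources used here, and nothing in the labels says that the 2 libraries of a group came from separate animals, so the spread between them may be technical.

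H3K27me3 is placed by Polycomb repressive complex 2 on nucleosomes at silenced genes, and in blood progenitors it covers, among others, developmental regulators of other tissues and genes of other lineages. Its domains can be narrow, over a CpG-rich promoter, or broad, over a whole locus. Dnmt3a adds methyl groups to cytosines in CpG pairs, and R878H is the mouse counterpart of a hotspot change in human clonal hematopoiesis. Metformin is a biguanide that inhibits mitochondrial complex I.

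The promoters printed here are those of 5 genes with which the comparison is described, and each window is overlapped, by at least 1 bp, by an interval of both libraries of one group and of none of the other. They run from 250 bp before to 50 bp after the transcription start, 5′ to 3′ on the strand of the gene, and were copied from RefSeq on GRCm38.p6, with each CG in capitals. Odf3b, Vmo1 and Irf1 were marked in RH MET, and Ssr4 and Mpo in WT VEH. Vmo1 and Ssr4 were taken by covered share, and the other 3 were chosen after their values had been seen. In that order the windows are chr15:89379205-89379504 (minus strand), chr11:70514567-70514866 (minus), chr11:53769764-53770063 (plus), chrX:73786773-73787072 (plus) and chr11:87793534-87793833 (plus).
Odf3b: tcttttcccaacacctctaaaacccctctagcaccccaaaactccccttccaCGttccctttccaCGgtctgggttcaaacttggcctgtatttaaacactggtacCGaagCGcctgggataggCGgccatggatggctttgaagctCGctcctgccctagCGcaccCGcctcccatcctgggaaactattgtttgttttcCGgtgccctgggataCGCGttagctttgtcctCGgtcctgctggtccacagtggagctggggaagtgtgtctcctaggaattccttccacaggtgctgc
Vmo1: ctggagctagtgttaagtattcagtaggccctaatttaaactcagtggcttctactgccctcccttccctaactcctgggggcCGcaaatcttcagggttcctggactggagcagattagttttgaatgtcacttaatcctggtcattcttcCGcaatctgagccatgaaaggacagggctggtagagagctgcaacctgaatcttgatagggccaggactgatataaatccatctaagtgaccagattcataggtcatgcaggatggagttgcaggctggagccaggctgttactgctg
Irf1: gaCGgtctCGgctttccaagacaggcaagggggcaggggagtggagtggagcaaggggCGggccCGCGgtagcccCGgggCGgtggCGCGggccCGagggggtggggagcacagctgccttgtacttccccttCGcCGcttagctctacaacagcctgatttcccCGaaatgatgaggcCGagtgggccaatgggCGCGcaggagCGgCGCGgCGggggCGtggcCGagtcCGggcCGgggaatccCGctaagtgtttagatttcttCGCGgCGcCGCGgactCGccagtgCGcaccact
Ssr4: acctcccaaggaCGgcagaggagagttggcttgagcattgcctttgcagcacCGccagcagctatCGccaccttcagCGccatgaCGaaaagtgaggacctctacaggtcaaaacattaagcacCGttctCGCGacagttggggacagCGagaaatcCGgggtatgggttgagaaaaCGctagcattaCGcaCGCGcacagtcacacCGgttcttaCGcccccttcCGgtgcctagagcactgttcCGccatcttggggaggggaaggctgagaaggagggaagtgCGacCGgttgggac
Mpo: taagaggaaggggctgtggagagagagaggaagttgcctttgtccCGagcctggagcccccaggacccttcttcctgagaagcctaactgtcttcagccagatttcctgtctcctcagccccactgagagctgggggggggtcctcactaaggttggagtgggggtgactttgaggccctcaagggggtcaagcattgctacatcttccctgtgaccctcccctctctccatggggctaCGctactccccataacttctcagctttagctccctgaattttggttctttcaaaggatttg
The Irf1 window holds 32 CG pairs, that of Ssr4 20, that of Odf3b 12 and those of Vmo1 and Mpo 2 each. CG reads the same on both strands, and 94.8% of all 17491 promoter windows hold at least 1. Promoters rich and poor in CG pairs were thus both found in each direction.

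The 4 libraries differed in how much of the genome their intervals covered. WT VEH 1 and 2 held 12009 and 16259 intervals, and RH MET 1 and 2 held 16879 and 15257. The covered length was 142 and 145 Mb in WT VEH and 122 and 131 Mb in RH MET, so the groups did not overlap, with a difference of -16.4 Mb in the mean (two-sided exact permutation test, p = 0.333, the smallest that 2 libraries against 2 allow; 0.5 after Benjamini-Hochberg adjustment over 6 totals). The number of intervals overlapped between the groups (exact p = 0.667). The median interval was 9.0 and 6.6 kb long in WT VEH and 5.2 and 6.4 kb in RH MET. Read depth is unknown for every library, and an absent interval does not show that the mark was absent.

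**Figure D1:**
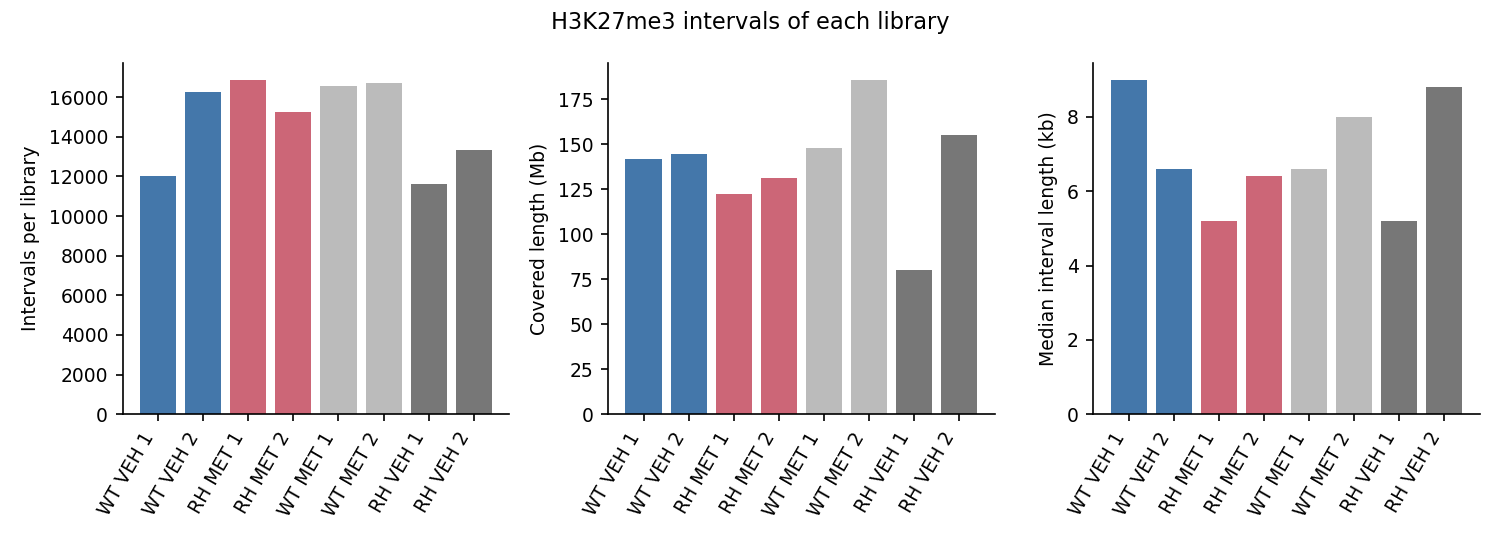
Intervals per library, covered length in Mb and median interval length in kb for the 8 libraries, 1 bar each, with WT VEH in blue, RH MET in red and the other groups in grey. Both RH MET libraries cover less (122 and 131 Mb) than both WT VEH libraries (142 and 145 Mb), and RH VEH 1 covers least of all (79.997 Mb).

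Classic Polycomb targets were marked in both groups. Hoxd11, a homeobox gene of limb and axis, and Cdkn2a, which encodes cell cycle inhibitors, had 100% of the span covered in each of the 4 libraries, and Pax6, an eye and brain regulator, over 91.2% to 95.9%. The housekeeping genes Actb and Gapdh carried no interval in any library. Of 5 T-cell markers all 5 were marked in each of the 4 libraries, of 5 B-cell markers 2 (Pax5 and Ebf1), of 5 stromal and endothelial markers 3, and of 12 progenitor genes 5 to 7. The labels name progenitors, and a repressive mark alone does not measure which of these genes were expressed.

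The counts of separating regions were of the size that the other ways of splitting the same 4 libraries gave. Of the 702 regions, 486 (3.10% of 15699) were called in both RH MET and neither WT VEH library, and 216 (1.38%) in both WT VEH and neither RH MET library. Splitting the libraries by their number gave 170 regions in both libraries numbered 1 and 425 in both numbered 2, 595 in all. The crossed split gave 123 regions in WT VEH 1 and RH MET 2 and 630 in WT VEH 2 and RH MET 1, 753 in all, so the split by group lay between the other two. On autosomes alone it was the largest, with 619 regions against 488 and 593 and, for genes, 120 in RH MET alone and 79 in WT VEH alone against totals of 143 and 169. For genes the group split gave 124 (1.53% of 8101) and 94 (1.16%), 218 in all, against 161 and 206 in the other splits. No test was made of these counts.

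The direction of the region counts changed with the number of intervals used per library. With the 12009 highest intervals of each library, the number that WT VEH 1 holds, 301 regions were called in RH MET alone and 322 in WT VEH alone. These 623 were more than the 399 and 444 of the other splits, and for genes the totals were 226 against 164 and 176, so at equal number the group split gave the largest count of the 3 splits. The order of the gene counts turned there, with 98 in RH MET alone and 128 in WT VEH alone. With a summit height of at least 15, the height being the authors' own unitless score, the group split gave 274 and 45 regions, 319 in all, and the other splits 251 and 337. At equal number 217 of the 486 RH MET regions and 83 of the 216 WT VEH regions met the rule again, and at the height minimum 75 and 4 did. Leaving out WT VEH 1, which has the fewest intervals, turned the order, with 670 regions in RH MET alone and 1649 in WT VEH alone. A single library then stood for WT VEH, which raises its count. Leaving out any other library kept the order, with 1417 RH MET and 646 WT VEH regions without WT VEH 2. Without RH MET 1 the counts were 1571 and 613, and without RH MET 2 they were 1882 and 419.

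**Figure D2:**
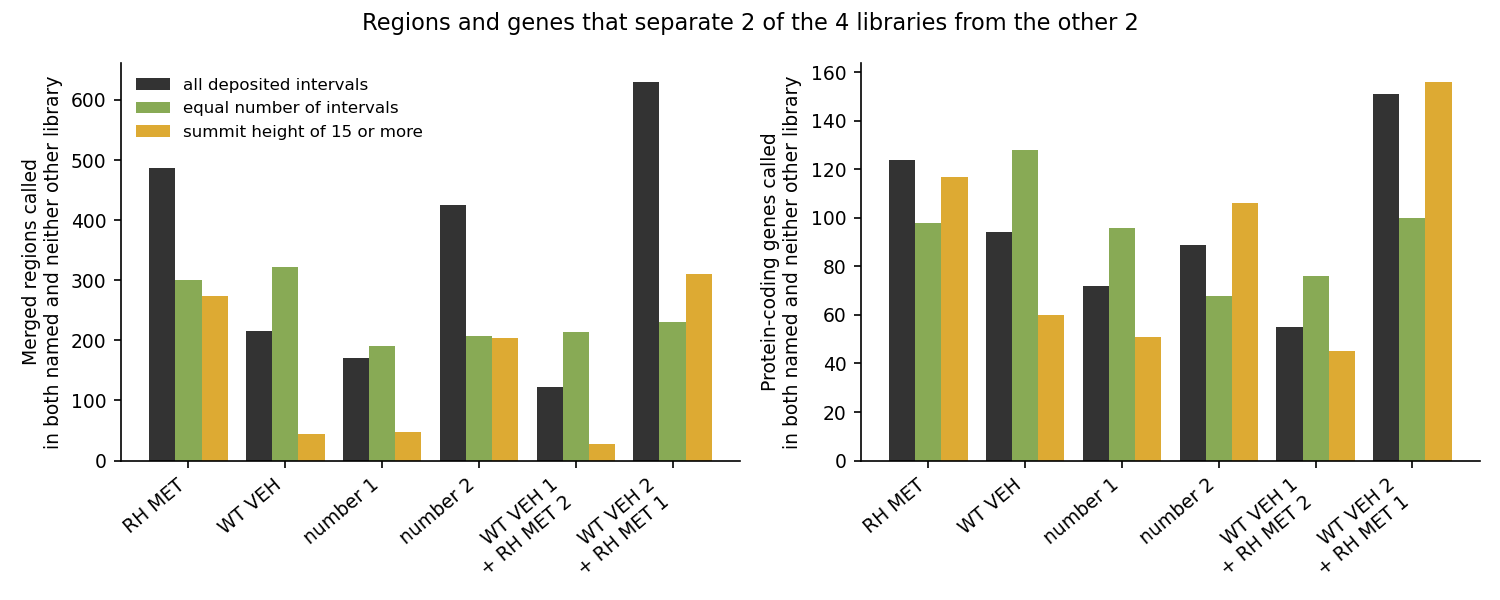
Merged regions (left) and protein-coding genes (right) called in both of the libraries named under a bar group and in neither of the other libraries, for all deposited intervals, an equal number of intervals per library and a summit height of at least 15. With all intervals the RH MET and WT VEH bars (486 and 216 regions) lie within the range of the other splits (123 to 630 regions).

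The separating regions were short and weak compared with the domains that all 4 libraries shared. The median summit stood at percentile 31.5 of its own library for the RH MET regions and at 18.2 for the WT VEH regions, against 71.9 for the 7590 regions called in all 4. Median covered length was 3.9 kb in RH MET regions and 6.2 kb in WT VEH regions. Of the RH MET regions 252 (51.9%) overlapped a protein-coding gene and of the WT VEH regions 102 (47.2%), against 79.2% of the regions called in all 4. In the other splits the percentile ran from 17.8 to 27.6 and the share in genes from 48.7% to 56.5%.

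Not every separating gene lay over a separating region. Among the 124 RH MET genes, 85 (68.5%) did, and the other 39 overlapped only regions that did not themselves separate the groups, such as a longer region that WT VEH covered beside the gene. Among the 94 WT VEH genes the numbers were 41 (43.6%) and 53. Requiring that no interval of the other group lie within 5000 bp of the gene left 81 and 40 genes. Covered share was low in most, with a median of 6.91% of the gene span in RH MET genes and 15.1% in WT VEH genes, and in 10 and 15 genes both libraries covered at least 50%.

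The 10 RH MET genes with the largest covered share were short, with spans of 1.10 to 4.25 kb. Odf3b, a gene of the outer dense fibre family of sperm tails, was covered over 100% of its 1.81 kb span in RH MET 1 and 2 and over 0% in WT VEH 1 and 2 (chr15:89377447-89379254). It was also covered over 100% in both RH VEH libraries and 0% in both WT MET libraries, so all 4 R878H libraries and no wild-type library marked it. Its summits were high, at 55 and 51, and it separated the groups under both filters and with the 5000 bp margin. The 18.2 kb region around it was not absent from wild type, as WT VEH 2, WT MET 1 and WT MET 2 carried 4.8, 1.8 and 8.2 kb of it outside the gene, and RH MET carried 11.4 and 15 kb. Tymp, the thymidine phosphorylase gene next to it, shared the same interval, with 15.5% and 19.2% of its span covered in RH MET. Dnase2a, which encodes a lysosomal nuclease, was the remaining gene marked in all 4 R878H libraries and in no wild-type one, with 37.4% and 84.9% in RH MET and 3.49% in each RH VEH library. It lay at one end of a 48.6 kb region that all 8 libraries carried in part (29.2 and 28.8 kb in WT VEH, 38.8 and 45.8 kb in RH MET), and it did not pass the 5000 bp margin.

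Vmo1, a homologue of a vitelline membrane protein, was covered over 100% in both RH MET libraries and over 0% in both WT VEH libraries (chr11:70513516-70514616). RH VEH 1 and 2 covered 100% and 98.5% of it and WT MET 1 and 2 covered 44.1% and 7.72%, and the promoter window was overlapped by intervals of the 4 R878H libraries alone. Its summits were 8 and 18, and it separated the groups under neither filter. Its region carried 6.2 and 4.4 kb in WT VEH beside the gene. S100z, a calcium-binding protein gene, was covered over 100% in RH MET 1 and 2, WT MET 1 and RH VEH 2 and over 0% in the other 4 libraries. Rd3l, a relative of a photoreceptor gene, was covered over 100% in all 4 metformin libraries and over 0% in all 4 vehicle libraries, although WT VEH 2 and RH VEH 2 carried 2.6 and 17.4 kb elsewhere in its 35.8 kb region.

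Rln3, the gene of the neuropeptide relaxin-3, was covered over 100% in RH MET 1 and 2 and over 0% in all of the other 6 libraries (chr8:84043067-84044979). Tppp3, a tubulin-binding protein gene, had 46.4% and 92.1% in RH MET and none elsewhere. Nhlrc1, which encodes the ubiquitin ligase malin, had 89.4% and 100% in RH MET, 71.9% in WT MET 1 and none elsewhere. Slitrk1, a neuronal membrane protein gene, had 80.9% and 71.5% in RH MET, and WT MET 1, RH VEH 1 and RH VEH 2 covered 66.8%, 32.9% and 90.3%. The other 2 of the 10 were Cd7, a surface protein of T and natural killer cells (100% and 76.1% in RH MET, 100% in WT MET 2), and Ifitm1, an interferon-induced membrane protein gene (100% in both RH MET libraries, 100% in WT MET 1 and 84.5% in RH VEH 1). Of the 10, Odf3b, Nhlrc1 and Tppp3 separated the groups under both filters.

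Mpo, which encodes myeloperoxidase, the enzyme of neutrophil granules, was the only member of the 17 gene lists marked in WT VEH alone. Its span was covered over 51.0% and 28.4% in WT VEH 1 and 2 and over 0% in RH MET 1 and 2 (chr11:87793784-87804412), with 47.2% in WT MET 2 and none in WT MET 1, RH VEH 1 and RH VEH 2. The mark lay over the gene in 3 of the 4 wild-type libraries and in no R878H library, under either treatment. The Mpo span did not pass the 5000 bp margin, so an RH MET interval lay nearby, while its region did pass. Its 8.8 kb region was 1 of the 4 WT VEH regions that separated the groups under both filters, with a summit of exactly 15 in each WT VEH library, the minimum itself. Another 2 of these regions lay at Pik3r5 and Fut4, and both were called in all 4 wild-type and no R878H library. Pik3r5 encodes a regulatory subunit of phosphoinositide 3-kinase gamma in leukocytes, and Fut4 the fucosyltransferase behind the CD15 antigen of granulocytes. As a whole span, Fut4 was also among the 16 genes marked in all wild-type and no R878H libraries, and Pik3r5 was not. At Fut4 the intervals covered 2.4 and 2.2 kb in WT VEH, 1.6 and 3.8 kb in WT MET and 0 kb in the 4 R878H libraries. The last was a 3.8 kb region in Il20ra, a cytokine receptor gene, with 2.4 and 2.8 kb in WT VEH and 3.4 kb in WT MET 1.

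Most of the 10 WT VEH genes with the largest covered share were marked again in WT MET 2 and RH VEH 2. Olfr332, Olfr412 and Olfr1324, olfactory receptor genes, were covered over 100% in WT VEH 1 and 2 and over 0% in RH MET 1 and 2. All 3 were also covered over 100% in WT MET 2 and over 89.5% to 100% in RH VEH 2, and over 0% in WT MET 1 and RH VEH 1. Ssr4, a subunit gene of the translocon-associated protein complex, had the same pattern (chrX:73787023-73790828). It lay in a 150.2 kb region of which WT VEH covered 74.8 and 114.6 kb and RH MET still covered 60.6 and 68 kb. Pdzd3, a PDZ-domain protein gene, was covered over 97.9% and 79.2% in WT VEH and over 0% in the other 6 libraries. The remaining genes, Gm19668, Gm13090, the spermatid linker histone gene Hils1, the ribosome maturation gene Tsr2 and the keratin gene Krt88, had 83.9% to 100% in WT VEH. RH MET 1 and 2 still covered 67.4 and 88.6 kb of the Hils1 region and 69.8 and 63.6 kb of the Gm13090 region. They covered 8.2 and 5.4 kb of the Olfr412 region. RH MET 2 held 4.2 kb of the Olfr1324 region and RH MET 1 held 1.8 kb of the Pdzd3 region. The regions at Olfr332, Gm19668, Tsr2 and Krt88 themselves separated the groups. None of these 10 genes separated the groups with the height minimum, and their WT VEH summits ran from 8 to 16.

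**Figure D3:**
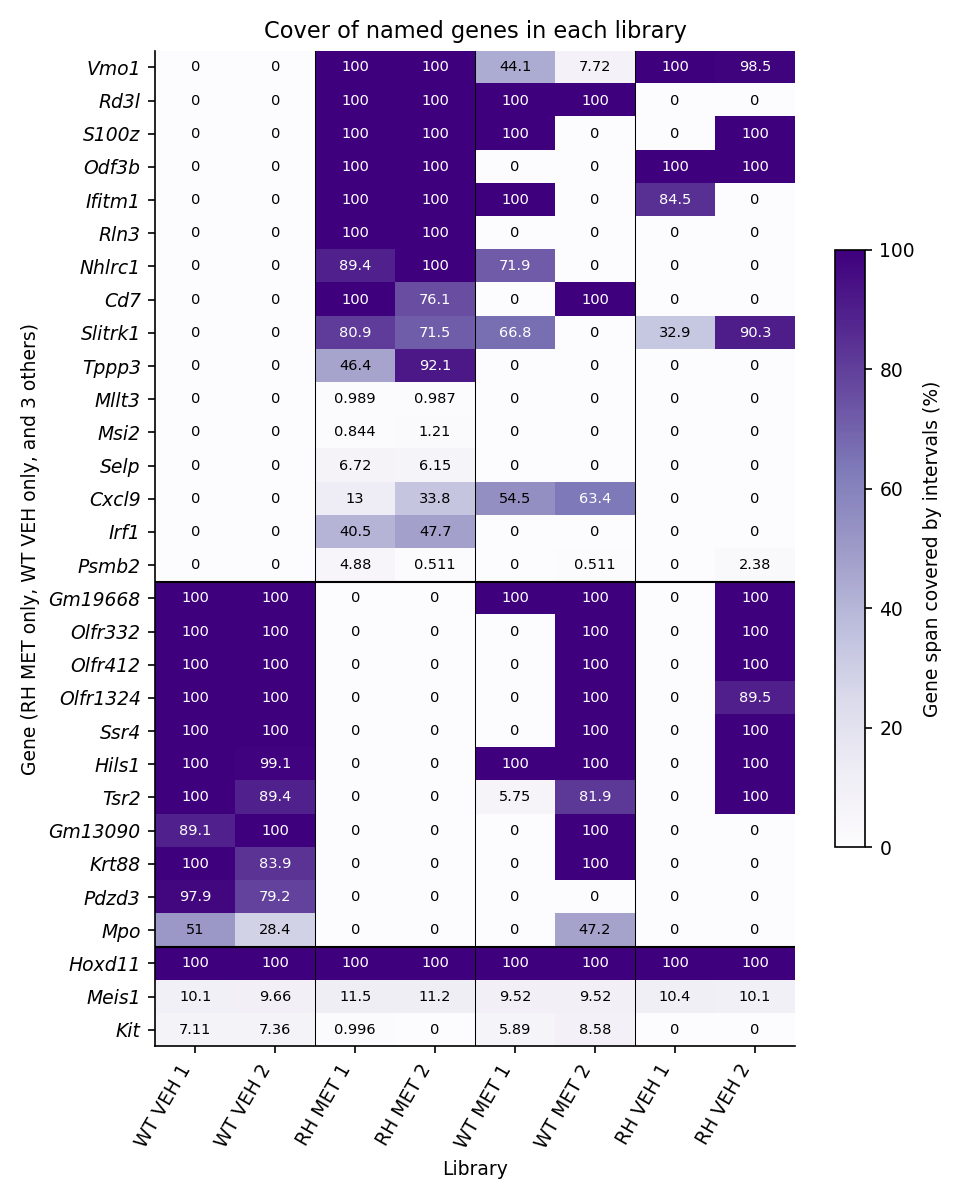
Share of each gene span covered by intervals, in percent, in the 8 libraries, for the genes of largest covered share and the named list genes called in RH MET alone (top), those called in WT VEH alone (middle) and 3 other genes (bottom). Odf3b reads 100 in all 4 R878H libraries and 0 in all 4 wild-type libraries, while the olfactory receptor genes of the middle block also read 89.5 to 100 in WT MET 2 and RH VEH 2.

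Among 33 genes of hematopoietic stem cells and self-renewal, 3 were marked in RH MET alone and 0 in WT VEH alone, of 27 marked in any of the 4 libraries, where all 8101 marked genes gave 124 (1.53%) and 94 (1.16%). Mllt3, a maintenance factor of stem cells, carried 2.61 and 2.60 kb at one end of its span in RH MET 1 and 2 and none in the other 6 libraries. Msi2, which encodes an RNA-binding protein that acts in self-renewal, carried 3.2 and 4.6 kb in RH MET and none in the other 6. These are short intervals in long genes, 0.844% to 1.21% of the span in these named genes, and all 3 genes met the rule again at equal interval number, and none at the height minimum. Of the 27 marked genes of the list, 9 had more cover in both RH MET libraries than in either WT VEH library and 2 had less. The 9 include by definition the 3 genes marked in RH MET alone. All 8101 marked genes gave 657 and 1383. The list was chosen with earlier results of these data known, and no test was made of it.

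Among 34 inflammatory and interferon genes 2 were marked in RH MET alone and 0 in WT VEH alone, of 14 marked in any of the 4 libraries, beside 1.53% and 1.16% of all marked genes. Irf1, a transcription factor of the interferon response, was covered over 40.5% and 47.7% in RH MET 1 and 2 and over 0% in the other 6 libraries (chr11:53770014-53778374), with summits of 17 and 13. Its promoter window with 32 CG pairs was overlapped by both intervals. Cxcl9, a chemokine induced by interferon gamma, was covered over 13.0% and 33.8% in RH MET, 54.5% and 63.4% in WT MET and 0% in all 4 vehicle libraries.

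The other lists gave 0 or 1 separating gene each, beside 1.53% (RH MET) and 1.16% (WT VEH) of all marked genes, so nothing is read from these counts. Selp, the platelet and endothelial adhesion receptor P-selectin, was 1 of 12 marked erythroid and megakaryocyte genes and was covered over 6.72% and 6.15% in RH MET and 0% in the other 6 libraries. Psmb2, a proteasome subunit, was 1 of 3 marked housekeeping genes and was touched over 4.88% and 0.511% in RH MET. It lay at the edge of a region that every library carried, with 9.2 and 7 kb in WT VEH and 8.6 and 11 kb in RH MET. Psmb2 separated the groups under neither filter and did not pass the 5000 bp margin. Mpo was 1 of 13 marked myeloid genes. No gene separated the groups in either direction among the marked B-lineage (5), T and natural killer (19), mast cell, basophil and eosinophil (3), stromal and endothelial (17), cell cycle inhibitor and tumour suppressor (7), complex I (4), metformin transport and energy sensing (12), one-carbon (11), histone and DNA methylation machinery (13), developmental regulator (61), Hox (39) and imprinted genes (23). All 39 Hox genes and 61 of 62 developmental regulators were called in all 4 libraries.

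Kit, which encodes the receptor used for the enrichment, did not meet the rule, because RH MET 1 called it. It was covered over 7.11% and 7.36% in WT VEH 1 and 2, over 0.996% in RH MET 1 and over 0% in RH MET 2. WT MET covered 5.89% and 8.58% and neither RH VEH library covered any of it. The promoter window was marked in WT VEH 1, WT VEH 2 and RH MET 1. Meis1, a stem cell homeobox gene, differed little, with 10.1% and 9.66% in WT VEH and 11.5% and 11.2% in RH MET.

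Of the 10 regions with the largest covered length in RH MET alone, 6 overlapped a protein-coding gene and 4 did not. The longest was 75.3 kb from S1pr1, a sphingosine phosphate receptor gene (chr3:115790401-115807200), with 16.8 and 12.6 kb in RH MET 1 and 2 and 0 kb in WT VEH, and it was called in all of the other 4 libraries as well (3.6 to 10.6 kb). Others were at Dzank1, Sobp, N6amt1, Pygm and Tmem269 and nearest to Edn1, Tex29 and Nr5a2. Their mean covered lengths ran from 9.4 kb to 14.7 kb, and none separated the groups with the height minimum, while 7 of the 10 did with an equal number of intervals.

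The 75 RH MET regions that passed both filters had higher summits by construction. The 10 with the longest cover lay over Irf2bp1 and Foxa3 (8.2 and 10.6 kb in RH MET), Prkag2, a regulatory subunit of AMP-activated protein kinase (6.6 and 11.6 kb), Il4ra, the interleukin-4 receptor (7 and 8.8 kb), Cyth3, Inf2 and Noxa1, an activator of NADPH oxidase, and outside genes, nearest to Bcl9, Arl3, Spsb1 and Haao. At Il4ra the intervals covered 0 kb in both WT VEH libraries, 8.6 and 8.4 kb in RH VEH, 0 kb in WT MET 1 and 10 kb in WT MET 2. At Prkag2 every library but those of WT VEH carried the region, with 3.4 to 11.8 kb. At Arl3, Inf2 and Noxa1 the RH MET libraries alone did, with 5.6 and 9 kb, 3.2 and 9.4 kb and 5.2 and 6.6 kb.

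In WT VEH alone the region of longest cover lay in Tcf7l2, a transcription factor of Wnt signalling (chr19:55848201-55871800). It was 17.8 and 17.6 kb in WT VEH, 12.8 and 13.8 kb in WT MET and 0 kb in all 4 R878H libraries. Its summits were low, at 10 and 13, and it separated the groups with an equal number of intervals and not with the height minimum. The region near Lrpap1 (22 and 5.8 kb in WT VEH) and that in Megf11 (9.4 and 16.8 kb) were likewise called in all wild-type and no R878H libraries. As whole spans, neither Tcf7l2 nor Megf11 was among the 16 genes marked in all wild-type and no R878H libraries. The values given here thus describe the regions and not the whole genes. The other 7, at or nearest to Kcna6, Fam181a, Chil1 with Mybph and Adora1, Tenm4, Olfr332, Fgd1 with Tsr2, and Mrps22, were also called in at least 1 RH VEH library. Of the 10, 7 separated the groups with an equal number of intervals.

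The separating regions were then followed into WT MET and RH VEH. The rule that chose regions did not use these libraries, but their intervals entered the merging that set the region borders. With regions merged over the 4 libraries alone, 561 regions of 17937 were called in RH MET alone and 283 in WT VEH alone. Of the 486 RH MET regions, 5 (1.03%) were also called by both RH VEH libraries and by neither WT MET library, so in all R878H and no wild-type libraries, against 0% to 0.813% of the regions of the other splits. Another 58 (11.9%) were called in both WT MET and neither RH VEH library, so in all metformin and no vehicle libraries, against 13.9% to 19.4% in the other splits. None of the other 4 libraries called 128 of them (26.3%), against 14.7% to 20.3%, and 19 were called in all. Of the 216 WT VEH regions, 39 (18.1%) were called in both WT MET and neither RH VEH library, so in all wild-type and no R878H libraries, a share inside the range of the other splits. Only 1, near Grpr, was called in all vehicle and no metformin libraries, and 34 (15.7%) in no other library. RH VEH 1, with 11620 intervals and 79.997 Mb, called least in each class. Without it, a choice made after seeing the data, 26 regions were in all R878H and no wild-type libraries and 45 the reverse.

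The 5 regions of all 4 R878H libraries were short. Among them were regions 8.68 kb from Ncald (3.2 and 4.4 kb in RH MET, 2 and 3.8 kb in RH VEH), 25.6 kb from Cript (3 kb in both RH MET libraries, 1.4 and 3 kb in RH VEH) and 28.6 kb from Tm2d1 (4.6 and 7 kb, 3.2 and 2.6 kb). All but the one near Ncald passed both filters, with RH MET summits of 15 and 16 near Tm2d1 and of 19 and 21 near Cript. Among the 124 RH MET genes, 3 (2.42%) were marked in all R878H and no wild-type libraries, against 0% to 0.662% in the other splits. Among the 94 WT VEH genes, 16 (17.0%) showed the reverse, inside the 8.99% to 23.6% of the other splits. These 16 included Fut4, Suox, which encodes sulfite oxidase, Mybph and Cilp. Without RH VEH 1 the gene counts were 8 and 18.

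**Figure D4:**
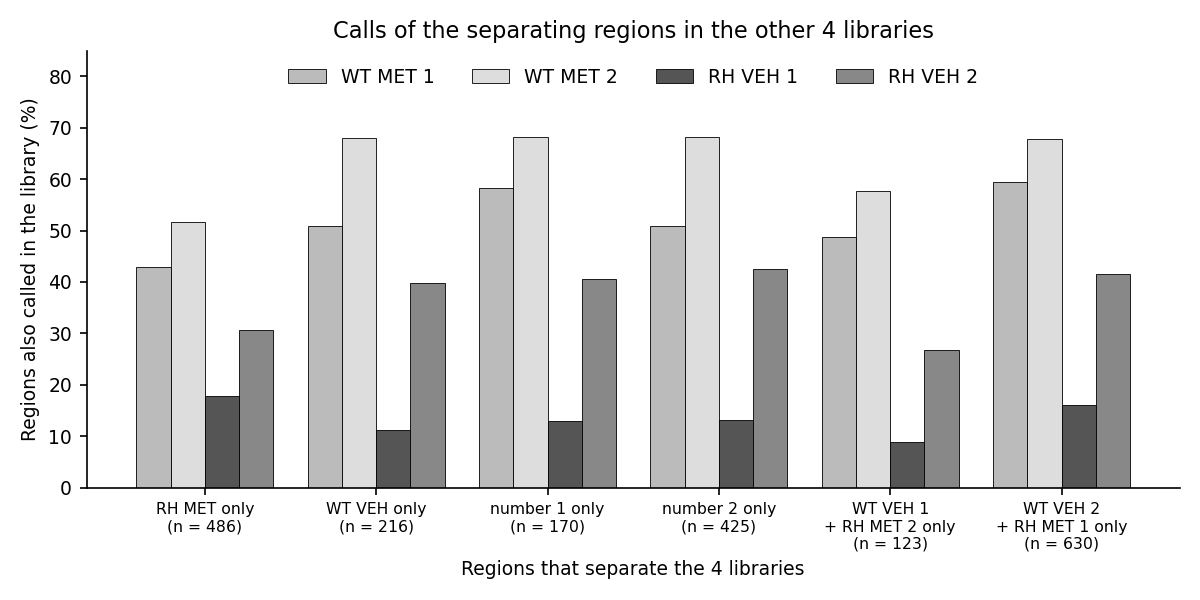
Share of the separating regions, in percent, that each of the other 4 libraries also called, for the regions of RH MET alone, WT VEH alone and the 4 classes of the other splits, with the number of regions under each class. RH VEH 1 called 17.9% of the RH MET regions and 11.1% of the WT VEH regions, against 8.94% to 16.0% in the classes of the other splits.

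The X chromosome took a larger share of the WT VEH regions than of the RH MET regions. It held 49 of the 216 (22.7%) and 34 of the 486 (6.996%), against 1987 of all 15699 (12.7%). In the other splits the classes with WT VEH 2 gave 20.5% (both libraries numbered 2) and 22.7% (WT VEH 2 and RH MET 1). The classes without it gave 11.8% (both libraries numbered 1) and 13.8% (WT VEH 1 and RH MET 2). WT VEH 2 covered 15.2 Mb of the X, against 9.56 Mb in WT VEH 1 and 8.95 and 8.26 Mb in RH MET. The part of this library in the X share was not tested. On autosomes alone the counts were 452 and 167 regions.

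In the 7590 regions that all 4 libraries called, cover in base pairs was more often shorter in both RH MET libraries than longer. In 2254 regions (29.7%) both RH MET libraries covered less than either WT VEH library, and in 459 (6.05%) both covered more. The split by number gave 13.0% and 13.5%, and the crossed split 22.0% and 9.01%. The median covered length per region was 10.6 and 9.5 kb in WT VEH and 8.2 and 9.0 kb in RH MET, and the median difference was -0.17 on the log2 scale. With each library centred at its median, a count added after seeing the data, 1068 regions (14.1%) were shorter in RH MET and 1725 (22.7%) longer. Centring takes out the difference between the libraries' medians, so these counts describe regions relative to the median of their library and do not bear on the difference in base pairs. On the X chromosome 163 of 402 shared regions (40.5%) were shorter in both RH MET libraries before centring, and on autosomes 2091 of 7188 (29.1%).

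**Figure D5:**
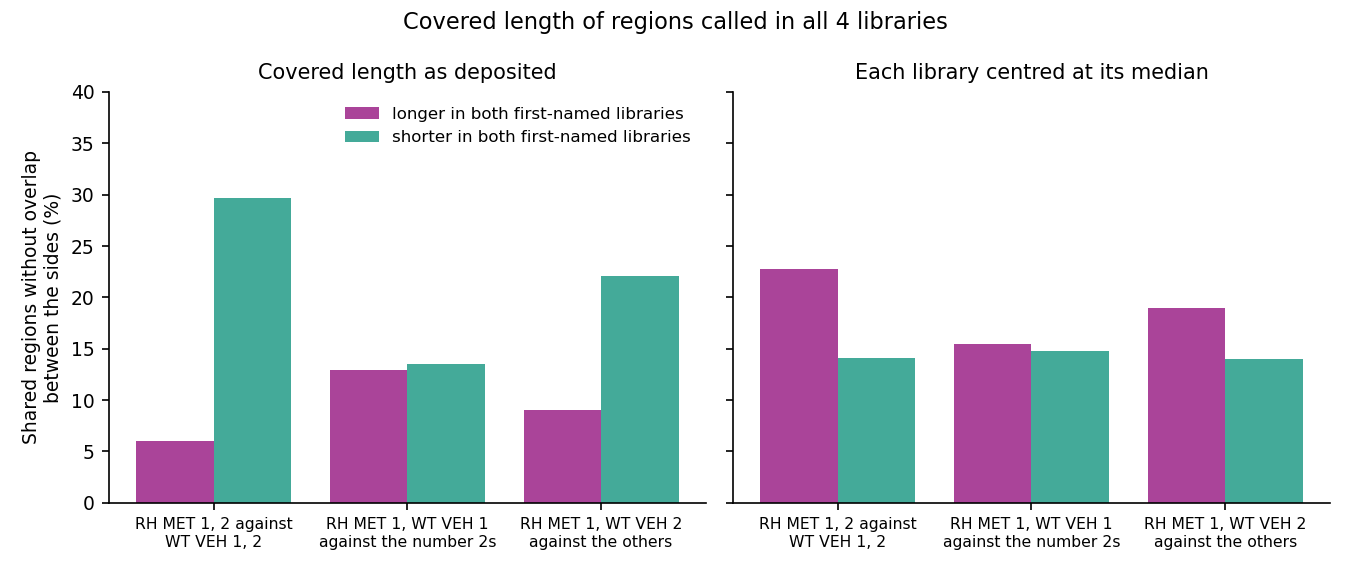
Share of the 7590 shared regions, in percent, in which both libraries of one side covered more (purple) or less (green) than both of the other, for the split by group and the other splits, as deposited (left) and with each library centred at its median log2 length (right). Of the group split 29.7% are shorter in RH MET at left and 14.1% at right, where 22.7% are longer.

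Region by region, no covered length differed between the groups after adjustment. limma on the centred log2 covered length called 0 of 7590 regions longer (0% of those tested) and 0 shorter in RH MET (0%) at an adjusted p under 0.05, the smallest being 0.833, and 166 and 252 had an unadjusted p under 0.05. Those of smallest p included Grik4, a kainate receptor gene, with 18.8 and 26.6 kb in RH MET 1 and 2 against 7.4 and 6.2 kb in WT VEH (log2 difference 1.95 ± 0.253, SE; limma adjusted p = 0.833). The region of S100z had 16.2 and 23.2 kb against 3.4 and 6.4 kb, and that of Pebp4 12.4 and 15.2 kb against 6.6 and 6 kb. In the other direction Cdh4, a neural cadherin gene, had 6.6 kb in both RH MET libraries against 24.4 and 27.4 kb, and the X-linked genes Vgll1 and Ccdc160 had 2.2 and 3.2 kb against 11.8 and 11.6 kb and 3 and 2.4 kb against 11.8 and 12 kb. RH VEH 1 carried no interval in these 2 X-linked regions and RH VEH 2 carried 10.2 and 8.4 kb, so the R878H libraries differed among themselves there. The remaining regions of this rule lay nearest to Mamld1 and Mphosph6 (longer) and to Gpr101 and 1700018B08Rik (shorter).

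The mark reached the promoter in part of the separating genes. Of 95 RH MET genes with a RefSeq promoter window, 50 (52.6%) had the window itself marked in both RH MET libraries and in neither WT VEH library, and of 77 WT VEH genes 33 (42.9%) had the reverse. The windows held a median of 14 CG pairs in both sets, against 13 over all 17491 genes with a window and 17 over the 4511 of them called in all 4 libraries. At least 20 CG pairs were found in 38.9% of RH MET windows, 37.7% of WT VEH windows and 36.1% of all. The Jaccard index of covered base pairs, the shared part of the joint cover, was 0.587 within WT VEH and 0.598 within RH MET, against 0.565 to 0.596 for the 4 pairs between the groups.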

How the data were processed

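H3K27me3 was mapped by chromatin immunoprecipitation sequencing on mm10. The tools bcl2fastq 2.20 and BWA 0.7.12 are named per the submitters' processing notes, without their roles, and which caller and settings gave the intervals, and how the input entered, is not given in the sources used here. Per the file headers, each library has its own interval and summit tracks, and the authors deposited a score for each summit, its height, in whole numbers of unnamed unit that may not be comparable between libraries. Merging all intervals gave 18556 regions, all 18556 identical to the deposited ones.

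Groups came from the labels. Genes were the 21883 protein-coding spans of RefSeq GRCm38.p6. Totals were compared by exact permutation over the 6 assignments of 2 against 2. Covered length of the 7590 shared regions was tested with limma 3.58.1 (R 4.3.3) on log2 base pairs, each library centred at its median, with Benjamini-Hochberg adjustment over all regions and a threshold of 0.05. Counting ran in Python 3.11.15 and was tested on simulated data. Of the list genes, 6 entries (Tpsab1, Mx1, H19, Kcnq1ot1, Meg3 and Peg13) were not matched.

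Genes and regions were named by rule. Per direction these were the 10 regions of largest covered length, the 10 genes of largest covered share, up to 4 genes per list, up to 10 regions that separated the groups under both filters, the 5 shared regions of smallest p and a few anchor genes. Genes of largest covered length, genes and regions named for their calls in all 8 libraries, and the promoters of Odf3b, Irf1 and Mpo were chosen after their values were seen. A few genes and regions that these rules pick are not reported here. The members and gene lists were chosen with earlier results of these data known. The alternatives were an equal number of intervals, a minimum height of 15, cover of at least 50%, autosomes alone, a margin of 5000 bp, regions merged over the 4 libraries, a window of 2500 bp around the transcription start, spans extended by 2000 bp, other limma designs and leaving out each library.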

Additional observations from a re-analysis of the deposited data

How the results depend on the processing

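With all intervals, 486 regions and 124 genes were called in RH MET alone and 216 and 94 in WT VEH alone. An equal number of intervals gave 301 RH MET regions, and the minimum summit height gave 274 RH MET regions, 45 WT VEH regions and 60 WT VEH genes. Cover of at least 50% gave 666 WT VEH regions, against 393 of RH MET, and 32 RH MET genes, against 115 of WT VEH. An equal number of intervals gave 98 RH MET and 128 WT VEH genes, so under both settings the order of the gene counts turned. The margin of 5000 bp left 81 and 40 genes. Leaving out 1 library, so that a single library stood for its group, gave 670 to 1882 RH MET regions, 419 to 1649 WT VEH regions, 214 to 445 RH MET genes and 193 to 331 WT VEH genes, and without WT VEH 1 the WT VEH counts were the larger ones (1649 and 331, against 670 and 214). Fewer libraries then have to be alike, which raises every count. All other alternatives kept these counts within 1.5 times.

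Without RH VEH 1, 26 regions and 8 genes were called in all R878H and no wild-type libraries, in place of 5 and 3. Centring each library, which removes the difference between library medians, changed the shared regions shorter in RH MET from 2254 to 1068 and the longer ones from 459 to 1725. Both alternatives were added after the data were seen.

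limma called 0 shared regions under each setting, with a smallest adjusted p of 0.409 (all 8 libraries) to 0.984 (without RH MET 1). The median log2 difference was 0.052 when centred and -0.172 when not, and 43.5% and 71.4% of regions were then lower in RH MET. With a replicate block it called 0 (smallest adjusted p 0.866), with 138 longer and 251 shorter regions at an unadjusted p under 0.05. Whether the replicate numbers pair the samples is not known from the labels. Deviations of centred length from the group means of WT VEH 1 and RH MET 1 correlated at -0.0299 across the 7590 regions. This cannot decide it, because centring removes shifts of a whole library and only shared regions enter. No paired analysis was possible for the counts because they come from no test.

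Of the 57 named regions 40 met the rule again at equal interval number and 18 at the height minimum, and of the 62 named genes 46 and 22 did. Covered length kept its sign with the height minimum (-6.24 Mb) and on autosomes (-12.7 Mb), and interval number did as well (1070 and 1986). With the height minimum the exact permutation test gave p = 0.667 for covered length, against 0.333 on autosomes. Another split of the 4 libraries thus differed at least as much with the height minimum. Read depth is unknown for every library, so no limit can be set on the mark in a library without an interval.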

Other observations

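Of the genes outside the lists, Tnfaip2, a gene induced by tumour necrosis factor, was covered over 44.2% and 39.4% of its span in RH MET 1 and 2, over 12.9% in WT MET 2 and over 0% elsewhere. A second region, at its other end, carried 12 kb in WT VEH 1, 11.6 and 13.4 kb in WT MET and 0 kb in WT VEH 2 and all 4 R878H libraries, and the gene did not pass the 5000 bp margin. A region in Il6ra, an interleukin-6 receptor gene, carried 3.2 and 11 kb in RH MET and 0 kb in the other 6 libraries. This holds for the region only, as the whole Il6ra span was not among the 34 genes marked in the RH MET libraries alone. Zc3h12d, a regulator of immune transcripts, had 15.8% and 21.5% in RH MET, 21.5% in WT MET 2, 2.63% and 15.8% in RH VEH and 0% in the other 3 libraries. These genes were chosen after their values were seen, and no test was made of them as a group.

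In WT VEH alone, a region 34.3 kb from Ndufa10, a complex I subunit gene, carried 8 and 7.8 kb. Another, 5.37 kb from Aldh1l1, an enzyme of folate metabolism, carried 9.8 and 10.8 kb, and none of the other 6 libraries called either. Both lie outside protein-coding genes. They were picked after their values were seen from the 34 regions, inside or outside genes, that the WT VEH libraries alone called. No gene of the complex I and one-carbon lists separated the groups. Suox was covered over 100% and 22.7% in WT VEH, over 100% in both WT MET libraries and over 0% in all 4 R878H libraries.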
